A study of Rattus norvegicus with 8 samples.

Results

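Sgk1, Pik3r1, Pik3ip1 and Fnip1 are 4 genes that act on signalling through phosphoinositide 3-kinase (PI3K) and the growth kinase mTOR. They were chosen by gene name from the study's lists of m6A regions that differed between cells overexpressing Mettl3 and vector control cells. Together they had 4 regions of the 1967 in both lists, 1 region each, out of 1726 gene names. The genes were picked with their folds and p-values in view, so those values are given as a description and support nothing.

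The study used MeRIP-seq: RNA was fragmented, pulled down with an antibody to N6-methyladenosine (m6A) and sequenced, with a part kept unenriched as input. Primary vascular smooth muscle cells (VSMCs), the contractile cells of the artery wall, were taken from rat. The 8 libraries form 4 groups of 2: IP and input from cells overexpressing Mettl3, which encodes the catalytic subunit of the m6A methyltransferase, and IP and input from cells given the vector. The labels name neither the delivery of Mettl3 nor the strain, sex or age of the rats, and do not say if a group's libraries stem from separate cell isolations; any spread between them may be technical. The tables compare the conditions and hold no value per library, so neither a spread between libraries nor a library depth can be given. The sources used here do not say how the input libraries entered the folds, so less m6A per transcript and less transcript cannot be told apart.

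PI3K, made of a catalytic and a regulatory subunit, turns a membrane lipid into a signal that recruits kinases such as AKT and lets SGK1 be activated downstream of mTOR complex 2. AKT and SGK1 phosphorylate FoxO transcription factors, which keeps them out of the nucleus, while AKT also relieves the brake on mTOR complex 1, a driver of protein synthesis and cell growth. A complex of folliculin with FNIP1 or FNIP2 acts at the lysosome on Rag GTPases, which bring mTOR complex 1 to the lysosome when nutrients are present. In smooth muscle these routes are known for their part in proliferation and in the growth of the inner vessel layer after injury.

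Sequences of the m6A regions are not shown, because a genome of the files' build was not used here. Start sites of the same genes are shown instead, since the study's title concerns transcription of Sgk1. The regions of all 4 genes were listed as lower in overexpressing cells, as were 86.9% of all listed regions. Windows of 300 bases, 250 before and 50 after an annotated start, came from RefSeq on build GRCr8, and all 4 genes matched. Capitals mark a match, on either strand, to 3 motifs that do not overlap in these windows. The FoxO element was searched as GTAAACA. The E-box, bound by basic helix-loop-helix factors such as TFEB, was searched as CACGTG. The TATA box was searched as TATAAA. These motifs were picked after the sequences had been seen.
Sgk1, chr1:24804782-24805081, minus strand: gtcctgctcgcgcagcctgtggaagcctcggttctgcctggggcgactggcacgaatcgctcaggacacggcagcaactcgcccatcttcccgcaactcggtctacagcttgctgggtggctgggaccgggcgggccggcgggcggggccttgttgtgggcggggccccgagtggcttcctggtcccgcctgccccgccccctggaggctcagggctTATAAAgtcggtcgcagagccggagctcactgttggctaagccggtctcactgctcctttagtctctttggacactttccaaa
Pik3ip1, chr14:82428065-82428364, plus strand: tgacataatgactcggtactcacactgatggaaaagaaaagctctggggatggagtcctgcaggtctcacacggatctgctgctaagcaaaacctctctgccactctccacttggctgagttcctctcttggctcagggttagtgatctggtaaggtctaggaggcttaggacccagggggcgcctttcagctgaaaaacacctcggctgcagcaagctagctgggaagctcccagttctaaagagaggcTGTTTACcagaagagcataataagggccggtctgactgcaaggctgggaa
Fnip1, chr10:39068214-39068513, plus strand: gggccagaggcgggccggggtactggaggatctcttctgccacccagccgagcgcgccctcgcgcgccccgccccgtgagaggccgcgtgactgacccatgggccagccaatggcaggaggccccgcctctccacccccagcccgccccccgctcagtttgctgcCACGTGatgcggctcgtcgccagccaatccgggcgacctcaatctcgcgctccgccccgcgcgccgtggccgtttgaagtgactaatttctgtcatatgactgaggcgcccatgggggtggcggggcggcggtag
The Sgk1 window shown is 1 of 3 for that gene, of which 2 hold a TATA box, and the table does not say which start belongs to the transcript with the m6A region. Its TATA box began at base 218 of the window, upstream of the start. In Pik3ip1 the FoxO element, on the reverse strand, began at base 251, the first after the start, and in Fnip1 the E-box began at base 166. Among all 33469 windows of the same length, 3.78% held the FoxO element, 6.42% the E-box and 14.2% the TATA box. The window of Pik3r1 held none of these motifs. A match of letters is a description and not a site of binding.

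The 4 regions were all listed as lower in Mettl3-overexpressing cells, and none of these genes had a region in the list of higher ones. In the authors' deposited table, 86.9% of all listed regions were lower. At the authors' adjusted p under 0.05, 3 of the 4 regions passed, those of Fnip1, Pik3ip1 and Pik3r1, where 11.3% of all listed regions were lower and passed. Since the genes were picked on this contrast, nothing is read from either count. The deposited folds run vector over overexpression for these regions, and the log2 values given here run overexpression over vector. Each fold could be read as a ratio of 2 means, each a whole number of reads times a weight with a constant of 0.1 added. The numbers of reads that follow are called implied reads, and are an inference from the folds, not entries of the table. Which libraries they stand for is not stated there. Larger numbers of reads can give the same folds, and the smallest reading was used throughout.

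**Figure D1:**
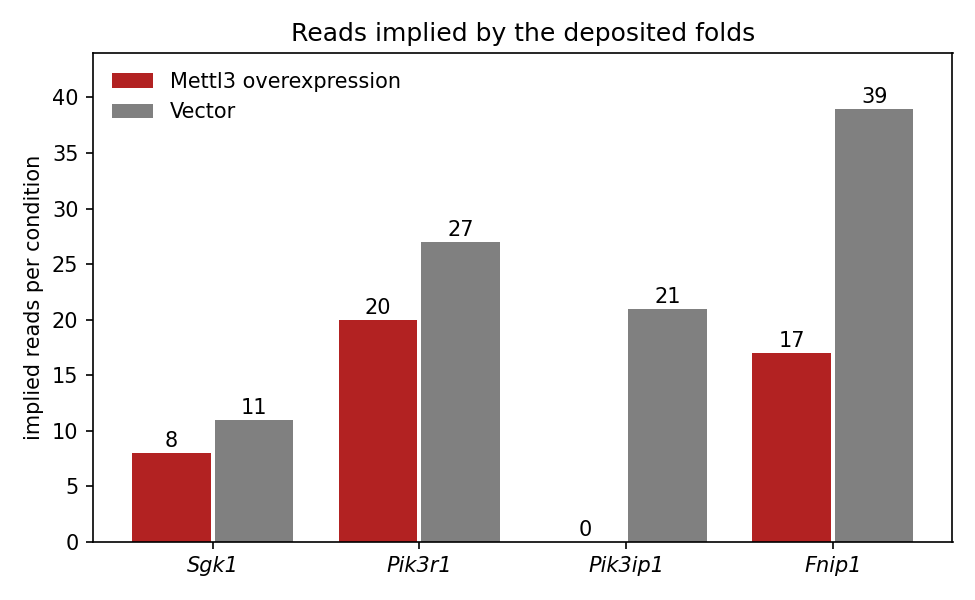
Implied reads per condition (vertical axis), as read from the deposited folds, for each gene's region, with Mettl3 overexpression at the left and Vector at the right of each pair. Pik3ip1 had 0 reads against 21, while Sgk1 had 8 against 11; the reads are before weighting, and a vector read weighed 4.09 times an overexpression read in the folds.

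Sgk1, the serum- and glucocorticoid-regulated kinase that phosphorylates FoxO factors and the ubiquitin ligase Nedd4-2, had a region of 136 bp (transcript NM_019232) at chr1:25658055-25658190 in the files' coordinates. That region rested on 8 implied reads in Mettl3-overexpressing cells and 11 in vector cells. As weighted means these were 0.98 in overexpressing and 5.53 in vector cells, which gave the fold of 5.21 (log2 value -2.38) of the authors' deposited table. The authors' deposited table gave this region a p of 0.0129 and an adjusted p of 0.177, above the threshold of 0.05. Among the 1710 lower regions, Fnip1 ranked 1476 by fold, Pik3r1 1628 and Sgk1 1630, all in the lower part of that order. By p, Sgk1 ranked 934, near the middle. The overexpression share of its 19 implied reads was 42.1% (95% exact binomial interval 20.3 to 66.5%). That interval includes 50%, where the conditions have equal reads, and lies below 80.4%, where their weighted means are equal. Neither value serves as a test here or for the other genes. Every listed fold is at least 4, so shares below 80.4% follow from the listing. With a vector read weighing 4.09 times an overexpression read, equal reads lie near that smallest fold. All such intervals cover counting error only, and the spread between libraries is not in them.

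Pik3r1 encodes p85-alpha, the regulatory subunit that stabilises the catalytic subunit of PI3K and docks it to activated receptors. Its region, also 136 bp long (transcript NM_013005), lay at chr2:50965082-50965217. It carried 20 implied reads in overexpressing cells and 27 in vector cells, with weighted means of 2.46 in overexpressing and 13.57 in vector cells. The fold of 5.34 (log2 value -2.42) was close to that of Sgk1, but by the authors' deposited table it passed, with a p of 0.000552 and an adjusted p of 0.0378. With 47 implied reads in all, against 19 for Sgk1, the region held more reads at nearly the same fold. A region in Zfp609, with a fold of 5.20, had 18 implied reads in overexpressing and 24 in vector cells. Its p was 7.50e-11 in the authors' deposited table, far below that of Pik3r1. Whether the number of reads sets these p-values apart was not tested. The overexpression share was 42.6% (28.3 to 57.8%), an interval that again includes 50% and lies below 80.4%.

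Pik3ip1 encodes a membrane protein that binds the catalytic subunit of PI3K and lowers its activity. Its region of 188 bp (transcript NM_001017453) lay at chr14:84248813-84249000. It had 0 implied reads in overexpressing cells and 21 in vector cells, the only 1 of the 4 with a condition at 0. The fold of 106.8 (log2 value -6.74) was the 9th largest of the lower regions and its p of 1.67e-07 the 20th smallest, with an adjusted p of 8.85e-05, by the authors' deposited table. Because the overexpression mean was 0, the size of that fold rests on the added constant. With 3 overexpression reads over the condition in place of 0, the fold was 22.8 with the weights kept and the ratio of reads alone was 7; both rest on that choice of 3 and are not bounds. A count of 0 in 21 reads allows an overexpression share of up to 14.3%, and the exact interval reached 16.1%.

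Fnip1, the partner of folliculin, had the smallest p of the 4. Its region of 172 bp (transcript NM_001271163) lay at chr10:39627442-39627613. It had 17 implied reads in overexpressing cells and 39 in vector cells, with weighted means of 2.09 in overexpressing and 19.62 in vector cells. In the authors' deposited table the fold was 9.00 (log2 value -3.17), the p 2.36e-08, the 12th smallest of the lower regions, and the adjusted p 1.77e-05. The overexpression share was 30.4% (18.8 to 44.1%), so for Fnip1 and Pik3ip1 the interval lay below 50% as well as below 80.4%. Since equal reads lie near the smallest listed fold, this restates that their folds were larger than those of Sgk1 and Pik3r1.

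**Figure D2:**
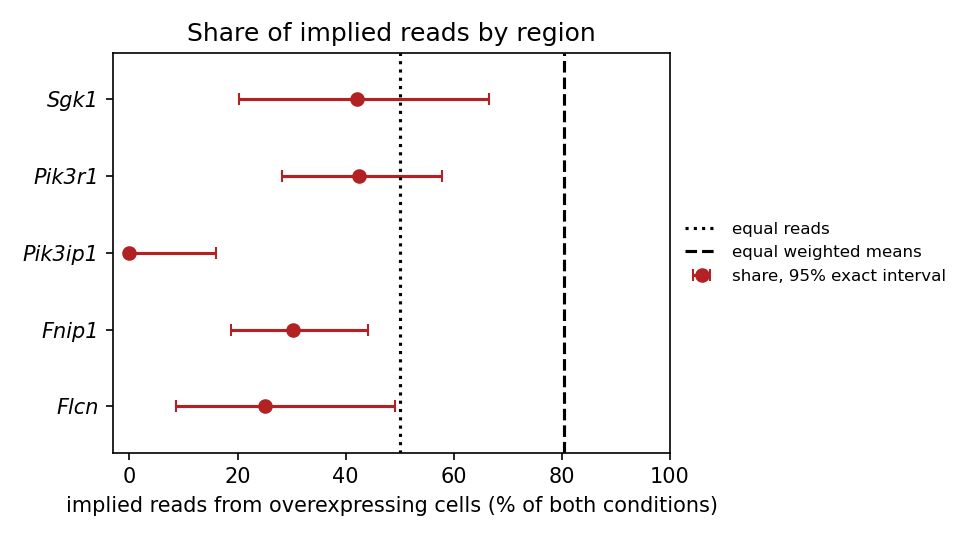
Share of implied reads that came from Mettl3-overexpressing cells (horizontal axis, percent of both conditions) for the regions of the 4 genes and of Flcn, with 95% exact binomial intervals for counting error. The dotted line marks equal reads (50%) and the dashed line equal weighted means (80.4%). Sgk1 and Pik3r1 span the dotted line, and all 5 intervals lie left of the dashed one. Every listed fold is at least 4, so shares left of the dashed line follow from the listing. The dotted line lies near that smallest fold.

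The order of the 4 genes thus depended on the measure. By deposited fold it was Pik3ip1, Fnip1, Pik3r1 and Sgk1, and by deposited p it was Fnip1, Pik3ip1, Pik3r1 and Sgk1. By the ratio of vector to overexpression reads with no weights, the values were 7 for Pik3ip1 (with 3 reads in place of 0), 2.29 for Fnip1, 1.38 for Sgk1 and 1.35 for Pik3r1. The shares of Sgk1 and Pik3r1 differed by less than their intervals, and those of Pik3r1 and Fnip1 overlapped. The interval of Pik3ip1, 0 to 16.1%, did not overlap those of the other 3, whose lowest bound was 18.8%. It did overlap that of Flcn, 8.66 to 49.1%. The shares come from folds that were in view when the genes were picked, so this gap serves as no test.

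**Figure D3:**
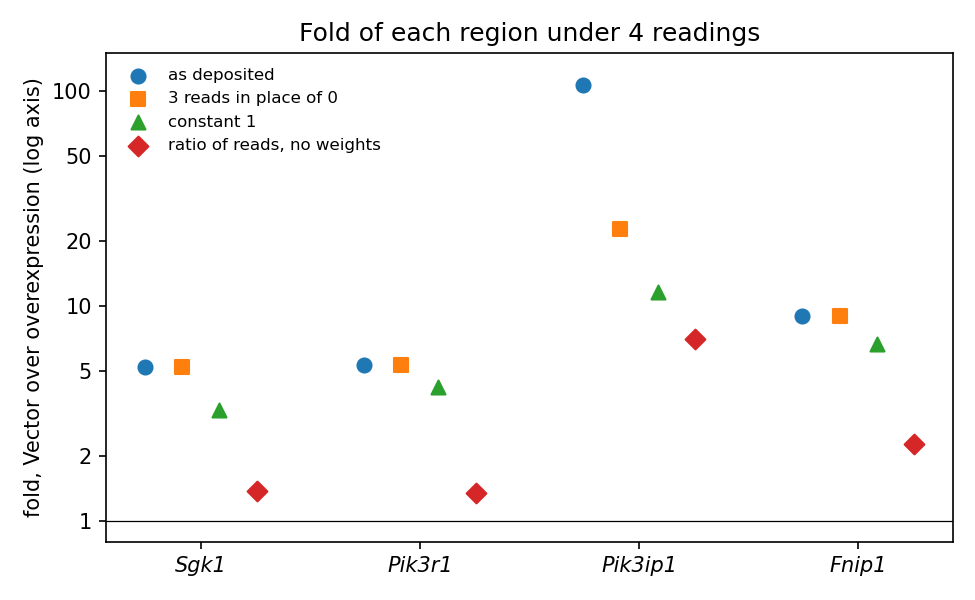
Fold of each gene's region, vector over overexpression (vertical log axis), as deposited, with 3 reads in place of an implied 0, with a constant of 1 in place of 0.1, and as the ratio of reads with no weights. The ratio of reads was the lowest value for each gene, from 1.35 for Pik3r1 to 7 for Pik3ip1 (with 3 reads in place of 0). All 16 points lie above 1, which follows from the listing. Every listed fold is at least 4, and a vector read weighs 4.09 times an overexpression read.

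The 4 regions held more implied reads than most lower ones. The reads are solved from folds that were in view when the genes were picked, so nothing is read from this. Over the 1709 lower regions whose fold could be read in this way, the median was 6 reads in both conditions together, and 151 had at least the 19 reads of Sgk1. An implied 0 in overexpressing cells was found for 82.8% of them, which Pik3ip1 shared and the other 3 genes did not. Among the 294 lower regions with reads in both conditions, the median overexpression share was 35.7%, above the 30.4% of Fnip1 and below the 42.1% of Sgk1 and 42.6% of Pik3r1. In length, 136 to 188 bp, they stood between the 52.0 and the 66.5 percentile of lower regions, whose median was 132 bp.

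Regions with equal implied reads did not always have equal p-values. Mical3, a cytoskeletal oxidoreductase gene, had the same 8 and 11 implied reads and the same fold of 5.21 as Sgk1 but a p of 0.0205 in the authors' deposited table, against 0.0129 for Sgk1. Cyp2j3 shared 0 and 21 reads with Pik3ip1 and had a p of 1.35e-06 in the authors' deposited table, against 1.67e-07 for Pik3ip1. Reads of Cyp2j3 may be shared with near-identical paralogs and are uncertain. No other lower region had the reads of Pik3r1 or of Fnip1. What sets these p-values apart, such as the spread between libraries, was not tested.

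By the nearest log2 fold in the same list, a likeness over this 1 comparison, the genes closest to Sgk1 were Mical3 and Zfp609, whose folds were 5.21 and 5.20 by the authors' deposited table. Those closest to Pik3r1 were Lrch1 and Chd1 (5.36 and 5.37), and those closest to Fnip1 were Snw1 and Zmpste24 (8.83 and 9.22) in the authors' deposited table. Cyp2j3 and Zfp217 stood closest to Pik3ip1, whose folds were 106.5 and 111.8 by the authors' deposited table. The adjusted p of these 8 regions spanned 2.00e-07 for Zfp609 to 0.217 for Mical3 in the authors' deposited table, so regions of like fold differed in their p-values by orders of magnitude.

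The rest of the pathway was looked up in 4 lists with 101 genes, which hold the 4 genes named above. Of these, 16 genes had 19 regions, all 19 of them lower, and 85 genes had none. At an adjusted p under 0.05, 4 genes had a lower region that passed in the authors' deposited table, and the other 12 had regions that did not. The regions that passed made up 21.1% (4 of 19), where 14% of all listed regions passed in either direction. Since 3 of these 4 were chosen for it, the other list genes are counted apart, and 1 of their 15 regions passed. The median −log10 p was 1.95 over the lists and 1.95 over all listed regions, and the median deposited fold was 26.1 over the lists and 26.2 over all.

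**Figure D4:**
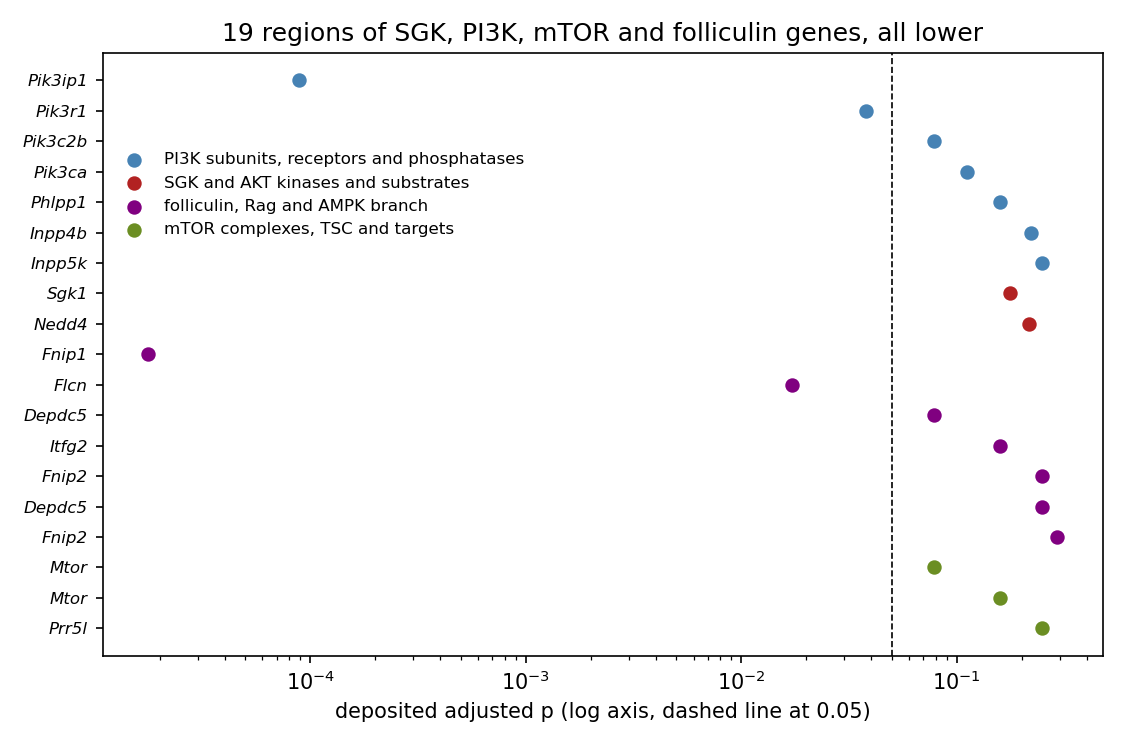
Deposited adjusted p (horizontal log axis) of each of the 19 regions of pathway genes, grouped by list in colour, with a dashed line at 0.05; a gene with 2 regions has 2 rows. Fnip1, Pik3ip1, Flcn and Pik3r1 lie left of the line, and the other 15 regions lie right of it.

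That region lay in Flcn, which encodes folliculin itself. Flcn had a region of 256 bp at chr10:45928442-45928697 with 5 implied reads in overexpressing cells and 15 in vector cells. The authors' deposited table gave it a fold of 10.6 (log2 value -3.41) and an adjusted p of 0.0172. The overexpression share was 25% (8.66 to 49.1%), and the interval overlapped that of Fnip1. Fnip2, the paralog of Fnip1, had 2 lower regions, neither of which passed (adjusted p = 0.248 and 0.292 in the authors' deposited table). The first rested on 0 implied reads in overexpressing cells and 4 in vector cells, and the other, 23 bp long, on 3 in overexpressing and 6 in vector cells. In the same list of 33 genes, Depdc5 (a subunit of GATOR1, which switches Rag GTPases off) had 2 lower regions with adjusted p of 0.0787 and 0.248, and Itfg2 (a subunit of KICSTOR, which anchors GATOR1) had 1 with 0.159, in the authors' deposited table. The 28 remaining genes, among them the Rag GTPases and the subunits of AMPK, had no region.

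Of the 28 genes in the PI3K list, 7 had a region and 2, Pik3ip1 and Pik3r1, passed. That is 28.6% of its regions, where 14% of all listed regions passed. Both genes were chosen with their values in view, and 0 of the other 5 regions passed. Pik3ca, a catalytic subunit that pairs with p85-alpha, had 0 implied reads in overexpressing cells and 8 in vector cells, and the authors' deposited table gave it an adjusted p of 0.112. Pik3c2b, a class II kinase, had 0 reads in overexpressing and 9 in vector cells, and the authors' deposited table gave it an adjusted p of 0.0787. The phosphatase genes Phlpp1, Inpp4b and Inpp5k, which act against AKT or its lipid signal, had adjusted p of 0.159, 0.222 and 0.248 in the authors' deposited table, on 0 overexpression reads against 4 to 6 vector reads.

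In the mTOR list 2 of 21 genes had a region, and in the list of SGK and AKT kinases and substrates 2 of 19, with no gene passing in either. Mtor had 2 lower regions, with 0 overexpression reads in both and 8 and 6 vector reads, and adjusted p of 0.0787 and 0.159 in the authors' deposited table. Prr5l, which encodes an mTOR complex 2 partner, had 0 reads in overexpressing and 4 in vector cells, with an adjusted p of 0.248 per the authors' deposited table. Nedd4, a ubiquitin ligase related to the SGK1 substrate Nedd4-2, had 0 reads in overexpressing and 5 in vector cells, with an adjusted p of 0.217 per the authors' deposited table. No FoxO gene had a region.

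**Figure D5:**
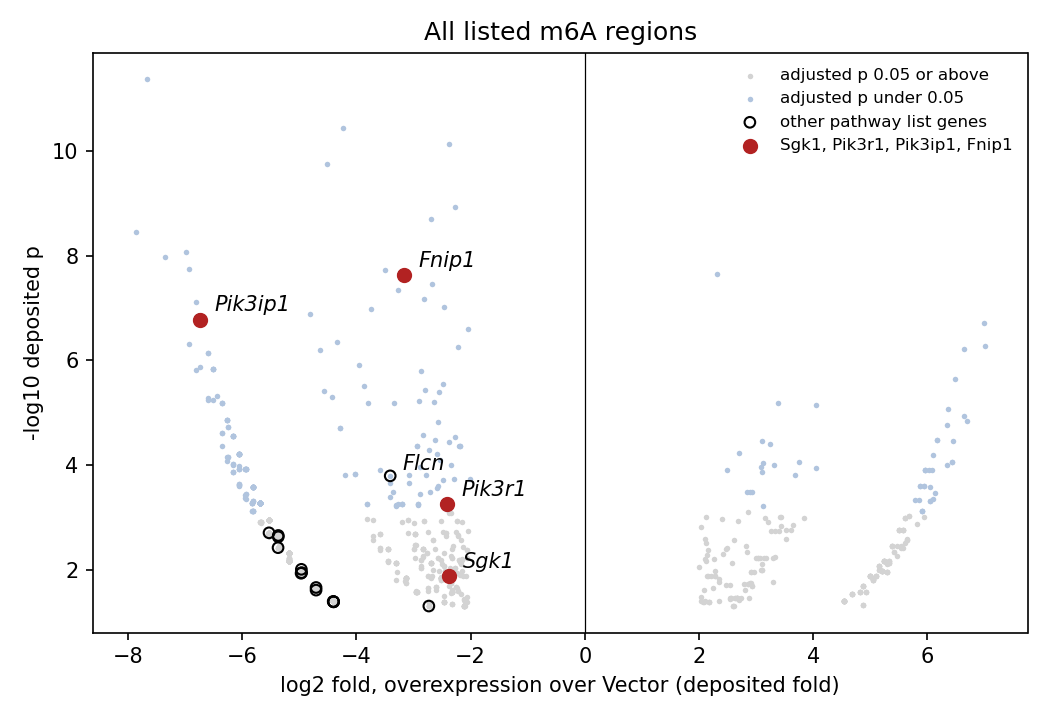
All 1967 listed regions by log2 fold, overexpression over vector (horizontal axis), and −log10 of the deposited p (vertical axis), with the 4 genes in red and other genes of the pathway lists as open circles. All of the marked regions lie at negative values; Pik3ip1 is on the curved edge formed by regions with an implied 0, while Sgk1, Pik3r1 and Fnip1 lie among those with reads in both conditions.

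The 4 regions lay on 4 chromosomes, 1, 2, 10 and 14. The nearest listed region to Pik3ip1 was in Drg1, 84.5 kb away, and the next in Depdc5, 423 kb away, both lower. Nearest to Fnip1 was Tnip1 at 448 kb, nearest to Pik3r1 was Mast4 at 1036 kb, and nearest to Sgk1 was LOC100360791 at 4054 kb, all of them lower. Exon, intron or untranslated part is not stated for any region in the tables.

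Mettl3, the overexpressed gene, had 2 higher regions and 1 lower one, all of which passed in the authors' deposited table. Of 8 contractile smooth muscle markers, Cnn1 and Myocd had 1 lower region each, neither of which passed, and none of the 5 endothelial, 5 leukocyte and 4 fibroblast markers had a region. The lists hold differences and not levels, so the cell type could not be checked by expression, and the part of other cells in the results was not tested.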

How the data were processed

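MeRIP-seq libraries were made from fragmented total RNA with an m6A antibody or as input, per the labels' protocols. Per the submitters' processing notes, trimming was done with Trimmomatic 0.36. The sources used here name no aligner, genome build, caller setting or statistical test. All region names begin with diffreps, a program for differential enrichment. The 2 tables hold the authors' own comparison: a fold, deposited as a ratio above 1 in both directions; a p-value and an adjusted p-value per region, as deposited; and a score that equals the −log10 of the deposited p. The deposited region length is in bp. Every deposited fold is at least 4. Starts were counted from 1. The files' build is not GRCr8, since a region ends at 248209735 on chromosome 4, past the last GRCr8 gene end at 184404305.

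Each fold was solved for 2 means with 2 decimals and a constant of 0.1, each a whole number of reads at 0.503 (vector) or 0.123 (overexpression) per read. Several readings were often possible, and the smallest was used. A likelihood-ratio statistic on weighted reads gave a −log10 p for each reading. For all 4 genes, the smallest reading came nearest to the deposited −log10 p, as for 98.8% of the 1963 regions with a reading. Regions with a single reading count there by construction. For Pik3r1 the nearest value was 4.42, against a deposited 3.26. The decoding was tested on simulated data. Depth per library is unknown. No test of the members was made. Planned tests per library were not run, since only the comparison is tabulated. The genes and lists were chosen with earlier results of these data known. Named genes were the 4 genes, all list genes with a region, the 2 regions nearest in log2 fold to each, and Mettl3; Mast4, Drg1, Tnip1, LOC100360791 and genes named in the closing section were added after their values were seen. Python 3.11.15, pandas 2.3.3 and scipy 1.17.1 were used.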

Additional observations from a re-analysis of the deposited data

How the results depend on the processing

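Of the 4 regions, 2 passed at an adjusted p under 0.01 (Fnip1 and Pik3ip1), 3 at an adjusted p under 0.10 and 4 at the unadjusted p. The count of pathway genes with a passing region was 4 at an adjusted p under 0.05, 2 under 0.01, 7 under 0.10 and 16 at the unadjusted p of the lists, which changes by construction with the threshold. All 4 regions were at least 50 bp long and had at least 10 implied reads in the higher condition, so with either minimum 3 regions and 4 pathway genes still passed at an adjusted p under 0.05. The fold of Pik3ip1, 106.8 as deposited in the authors' deposited table, was 22.8 with 3 reads in place of 0 and 11.6 with a constant of 1. With no weights the ratio of vector to overexpression reads was 1.38 for Sgk1, 1.35 for Pik3r1, 7 for Pik3ip1 and 2.29 for Fnip1. That the vector had more reads in each follows from the listing at a fold of at least 4. Among the 294 lower regions with reads in both conditions, 0 had more overexpression than vector reads. Whether the weights match the depth of the libraries was not tested. No paired analysis was possible because only the comparison is tabulated, with no entry for single libraries; leaving out a library could not be run for the same reason.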

Other observations

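Sgk1 and Pik3r1 share 3 KEGG pathways in the deposited annotation: PI3K-Akt, FoxO and aldosterone-regulated sodium reabsorption. These are all 3 pathways that Sgk1 carries, while Pik3r1 carries 75. Pik3ip1 and Fnip1 carry none. The PI3K-Akt pathway held 37 listed regions in 33 genes, 32 lower and 5 higher, of which 4 passed (10.8%), where 14.6% of the 603 regions with a pathway passed. Besides Pik3r1, these were lower regions of Ccnd1 (cyclin D1) and Col1a1 (a chain of type I collagen) and a higher region of Itga8, an integrin chain. The other 4 higher regions, in Met (a growth factor receptor), Ptk2 (focal adhesion kinase), Itgb4 and Eif4e2, had adjusted p of 0.110, 0.217, 0.0592 and 0.139 in the authors' deposited table and did not pass. The FoxO pathway held 14 lower regions and 0 higher ones, and 3 passed (21.4%, beside the same 14.6%), in Ccnd1, Crebbp and Pik3r1. Aldosterone-regulated sodium reabsorption held 4 lower regions, of which 1 passed (25%), in Pik3r1. The mTOR pathway, carried by Pik3r1 and not by Sgk1, held 6 lower regions and 1 higher one. There 1 passed (14.3%), again in Pik3r1. Pik3r1 was chosen with its values in view and is in each of these pathway counts. These counts describe the listed regions, 86.9% of which were lower.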
